A study of Mus musculus with 13 samples.

Results

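The 10 genes described here encode proteins that coat the triglyceride droplet of the fat cell, break down its triglyceride or regulate lipases. They were chosen by name, as members of the lipolysis and droplet machinery, from 19748 named genes on the array, and all 10 were measured. Pnpla2 encodes adipose triglyceride lipase, which removes the first fatty acid from stored triglyceride, Lipe encodes hormone-sensitive lipase, which acts mainly on the diglyceride left over, and Mgll encodes monoglyceride lipase, which completes the breakdown. Abhd5 encodes CGI-58, the activator of adipose triglyceride lipase, and G0s2 encodes an inhibitor of the same enzyme. Plin1, Plin2, Plin4 and Plin5 encode perilipins, proteins of the droplet surface. In the resting fat cell perilipin 1 holds CGI-58, and beta-adrenergic signals, through protein kinase A, phosphorylate perilipin 1 and hormone-sensitive lipase and so release lipolysis. Perilipin 5 is known from oxidative tissues such as heart, muscle and brown fat. Angptl4 encodes a secreted inhibitor of lipoprotein lipase, the enzyme that brings fatty acids from blood lipids into the tissue.

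Total RNA of white adipose tissue (WAT) and brown adipose tissue (BAT) of male C57BL/6J mice was measured on 1-colour Agilent arrays. Fv2E-PERK is the kinase domain of PERK, a stress kinase of the endoplasmic reticulum, fused to a domain that the ligand AP20187 (AP) brings together. The series is titled for mAP::Fv2E-PERK mice and for targets of the integrated stress response, the pathway downstream of PERK; the labels do not spell out the promoter. The groups were WAT of Fv2E-PERK mice given AP (3 arrays), WAT of Fv2E-PERK mice given vehicle (2 arrays), WAT of untreated wild-type mice (3 arrays), BAT of Fv2E-PERK mice given AP (2 arrays) and BAT of Fv2E-PERK mice given vehicle (2 arrays). AP was injected into the peritoneum at 100 ng/g and tissue was taken 12 h later; the protocol names muscles there, but all samples are labelled as fat. No age is given, no wild-type mouse received AP or vehicle, and there is no wild-type BAT, so the ligand itself and the kinase it activates cannot be told apart. A 13th array has labels that contradict each other on its tissue and entered no comparison.

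A level below is the log2 signal of a gene's brightest probe minus the 75th percentile of its array, so a level of 0 lies at that percentile and levels of different genes are not set against each other. Tests are limma's, over 12 arrays in 1 fit, with Benjamini-Hochberg adjustment over 24492 features and a threshold of 0.05. In bulk tissue, fewer cells of a type and less RNA per cell cannot be told apart. Whether each array stands for its own animal is not labelled; the p-values reflect array-to-array spread only, and 2 or 3 arrays in a group limit their precision. The tissue labels fitted the markers: Ucp1, the uncoupling protein of brown fat, lay between 9.87 and 10.63 on the BAT arrays and between -7.23 and -3.41 on the WAT arrays, and was well above background on 1 WAT array, AP array 3. The 3 slides do not cross the groups evenly, since all BAT arrays share a slide, the WAT AP arrays share a slide with WAT vehicle array 2, and the wild-type arrays share a slide with WAT vehicle array 1.

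Other tissue was present on some arrays, and this bears on many values below. Marker means below are taken over the markers with a value on every array. On WAT AP array 1 all 8 epididymal markers were well above background, and the 7 with a value on every array averaged 7.94 there. The 5 such adipocyte markers averaged 7.67 on AP array 1, against 8.59 and 8.65 on AP arrays 2 and 3, 8.26 and 8.20 on the vehicle arrays and 7.87 to 8.28 in wild type. The 4 such endothelial markers averaged -0.49 on AP array 1, below the 1.05 to 1.46 of every other WAT array. Emcn was furthest off, at -3.59 there against 0.45 to 1.04 on the other WAT arrays. Pecam1, Cdh5 and Tek were also lowest there, by less. On WAT AP array 2, 7 of 8 epididymal markers were above background (mean 0.094), as were 5 of 6 skeletal muscle markers (mean -0.90). Wild-type array 3 had 6 of 8 epididymal markers above background. Their mean was -3.67 there, against -5.64 to -4.82 on the other wild-type and vehicle WAT arrays. Muscle markers also differed within BAT, with means of 4.06 and 3.11 on the AP arrays and 0.60 and 4.79 on the vehicle arrays. The 6 liver markers averaged 3.91 on WAT vehicle array 2, against -1.57 to 0.68 on the other WAT arrays.

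**Figure D1:**
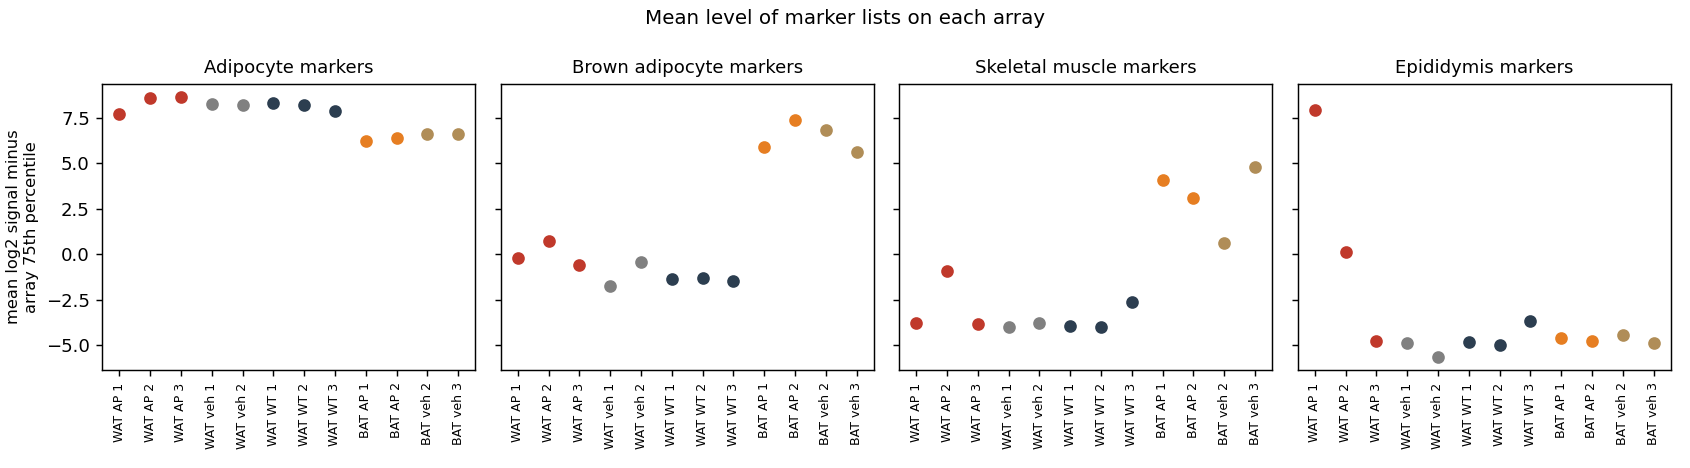
Mean log2 level (signal minus the array's 75th percentile) of 4 marker lists on each of the 12 arrays, over the markers with a value on every array. Epididymal markers stand at 7.94 on WAT AP array 1 and 0.094 on array 2, brown adipocyte markers separate BAT from WAT, and muscle markers range from 0.60 to 4.79 within BAT.

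The largest difference among the 10 genes lay between the tissues. Plin5, the perilipin of oxidative tissues, was 19.6-fold higher in BAT than in WAT under vehicle, and Pnpla2, the first lipase, was 2.80-fold higher. No member was significantly lower in BAT, although the perilipin Plin4 and the monoglyceride lipase Mgll averaged lower there. With 2 of 10 members past the threshold against 23.4% of all features, the count of members is near the background of this comparison. All BAT arrays share a slide with no WAT array, so slide and tissue cannot be told apart.

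Plin5 had levels of 7.03 and 7.11 on the BAT vehicle arrays, against 2.83 and 2.72 on the WAT vehicle arrays. The groups were far apart, and both BAT AP arrays, at 7.94 and 6.58, lay with the BAT vehicle arrays. The log2 difference between vehicle groups was 4.30 (SE 0.49, limma adjusted p = 7.73e-04), and 99.5% of features had a lower value. It passed in all 24 alternatives, at 3.81 to 4.49. Muscle marker means were 4.06 and 3.11 on the BAT AP arrays and 0.60 and 4.79 on the BAT vehicle arrays, and their part in these levels was not tested. Ordered by group mean, Plin5 stood at 7.26 ± 0.96 (SD, n = 2) in BAT AP, 7.07 ± 0.06 (n = 2) in BAT vehicle, 4.15 ± 0.67 (n = 3) in WAT AP, 2.77 ± 0.08 (n = 2) in WAT vehicle and 2.48 ± 0.24 (n = 3) in wild-type WAT. The BAT groups overlapped, the WAT vehicle arrays lay just above the wild-type ones, and the WAT AP arrays lay between these and BAT.

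Pnpla2 had levels of 9.61 and 9.18 on the BAT vehicle arrays, against 8.14 and 7.68 on the WAT vehicle arrays. The groups did not overlap, and the log2 difference was 1.48 (SE 0.38, limma adjusted p = 0.0220). It fell short of the threshold with quantile normalization, which makes the distribution of every array alike, at 0.40 (adjusted p = 0.423), and without WAT vehicle array 1 (1.71, adjusted p = 0.0516), WAT vehicle array 2 (1.25, adjusted p = 0.121) or BAT vehicle array 2 (1.27, adjusted p = 0.127). Over its 24 alternatives it passed in 18.

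Sequence before the start of 4 members is shown because Plin5, Plin2 and Abhd5 were the 3 members whose windows held AGGTCA, a core motif of nuclear receptors such as the PPARs, while Pnpla2, the other gene higher in BAT, had no match. The stretches begin 250 bases before the RefSeq start on GRCm38.p6, run 5′ to 3′ on the gene's strand and stop where the annotated gene begins. Motifs were searched on both strands, and capitals mark AGGTCA or its reverse complement.
Plin5, chr17:56117607-56117798, minus strand: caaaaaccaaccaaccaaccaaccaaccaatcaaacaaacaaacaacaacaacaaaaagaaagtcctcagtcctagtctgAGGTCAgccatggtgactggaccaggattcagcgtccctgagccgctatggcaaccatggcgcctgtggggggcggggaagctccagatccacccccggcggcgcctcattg
Plin2, chr4:86670218-86670309, minus strand: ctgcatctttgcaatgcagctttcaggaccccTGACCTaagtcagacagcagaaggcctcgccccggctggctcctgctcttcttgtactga
Abhd5, chr9:122351366-122351615, plus strand: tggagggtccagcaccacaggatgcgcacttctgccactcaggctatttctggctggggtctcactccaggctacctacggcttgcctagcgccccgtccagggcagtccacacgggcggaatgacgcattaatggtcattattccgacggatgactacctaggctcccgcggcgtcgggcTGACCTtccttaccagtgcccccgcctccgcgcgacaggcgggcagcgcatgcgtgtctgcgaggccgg
Pnpla2, chr7:141454938-141455187, plus strand: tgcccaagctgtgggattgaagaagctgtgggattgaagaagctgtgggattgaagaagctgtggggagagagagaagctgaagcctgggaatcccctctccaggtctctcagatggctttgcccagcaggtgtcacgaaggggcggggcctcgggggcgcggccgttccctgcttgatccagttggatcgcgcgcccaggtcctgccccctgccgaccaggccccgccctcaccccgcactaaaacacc
The printed match lay 170 bases before the start of Plin5, 218 before that of Plin2 and 69 before that of Abhd5. Another Plin5 window, not printed, held AGGTCA 13 bases after its own start. Of 32817 windows of 300 bases around gene starts in the same RefSeq table, 16.3% held AGGTCA on either strand. Windows were given for 9 members (12 windows in all, Angptl4 not among them). None held the DR1 element of the PPARs, in which AGGTCA is repeated after a single base (and which therefore overlaps the core motif) (0.0396% of all windows), nor TGATGNAAT, the core bound by C/EBP-ATF pairs (0.966%), nor TGACGTCA, the cyclic AMP element (1.79%). TGTTCT, a glucocorticoid receptor core motif found in 19% of windows, occurred 178 bases before a start of Mgll. These matches describe letters in these windows only.

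Among the other perilipins the direction between tissues differed by gene. Plin2, the perilipin of many cell types, had 9.35 and 7.46 in BAT vehicle, against 6.20 and 6.55 in WAT vehicle. The groups did not overlap, but the 2 BAT arrays were far apart, and the log2 difference of 2.03 (SE 0.78) had an adjusted p of 0.0952 in limma. Without BAT vehicle array 3, the one richer in muscle markers, it was 2.97 (adjusted p = 0.0429). Plin4, a perilipin of white fat cells, had 7.56 and 7.93 in BAT vehicle, against 8.50 and 8.67 in WAT vehicle. All BAT vehicle values were lower, by 0.84 on the log2 scale (SE 0.35, limma adjusted p = 0.113), and the difference passed at -1.81 with quantile normalization (adjusted p = 0.00604) and at -1.08 when the percentile was taken over probes detected on all arrays (adjusted p = 0.0232). Without WAT AP array 1, which enters only the shared estimate of the spread, its adjusted p was 0.0171. Plin1, which guards the droplet of the resting fat cell, had 7.62 and 7.32 in BAT vehicle, against 6.87 and 7.09 in WAT vehicle. The groups did not overlap, and the log2 difference of 0.49 (limma adjusted p = 0.322) turned to -0.32 with quantile normalization.

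The remaining members gave no call between the tissues. Lipe had 4.91 and 4.54 in BAT vehicle, against 4.06 and 4.13 in WAT vehicle (log2 difference 0.62, limma adjusted p = 0.325). G0s2 had 7.15 and 6.10 in BAT vehicle, against 5.62 and 5.95 in WAT vehicle (0.84, adjusted p = 0.258 in limma). Neither pair of groups overlapped, so 7 of 10 members did not overlap between tissues, against 69% of all features. Mgll had 7.49 and 6.96 in BAT vehicle, against 7.47 and 7.86 in WAT vehicle, an overlap, with a log2 difference of -0.44 (limma adjusted p = 0.431) that passed at -1.30 with quantile normalization (adjusted p = 0.0154). The 4 Mgll probes disagreed in size: a dim one was well above background on 8 of 8 WAT arrays and 0 of 4 BAT arrays, with vehicle means of -5.01 in BAT and -1.42 in WAT. With the BAT value taken as an upper bound, that probe was at least 12.1-fold lower in BAT (limma adjusted p over all probes = 5.61e-04), while the other 3 had log2 differences of -0.92 to -0.44. What part of the transcript the dim probe reads is not given. Abhd5 (3.59 and 2.80 in BAT vehicle, against 3.71 and 3.38 in WAT vehicle) and Angptl4 (7.29 and 8.83 in BAT vehicle, against 7.64 and 8.19 in WAT vehicle) overlapped between tissues. The log2 difference of that brightest Abhd5 probe was -0.35. Its dimmer probes gave -1.39 (limma adjusted p over all probes = 0.0946) and -0.63 (0.432), and the first of these did not overlap. For Angptl4 the difference of 0.14 changed sign with both quantile scalings, with the percentile over detected probes and without either BAT vehicle array 3 or WAT vehicle array 1.

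**Figure D2:**
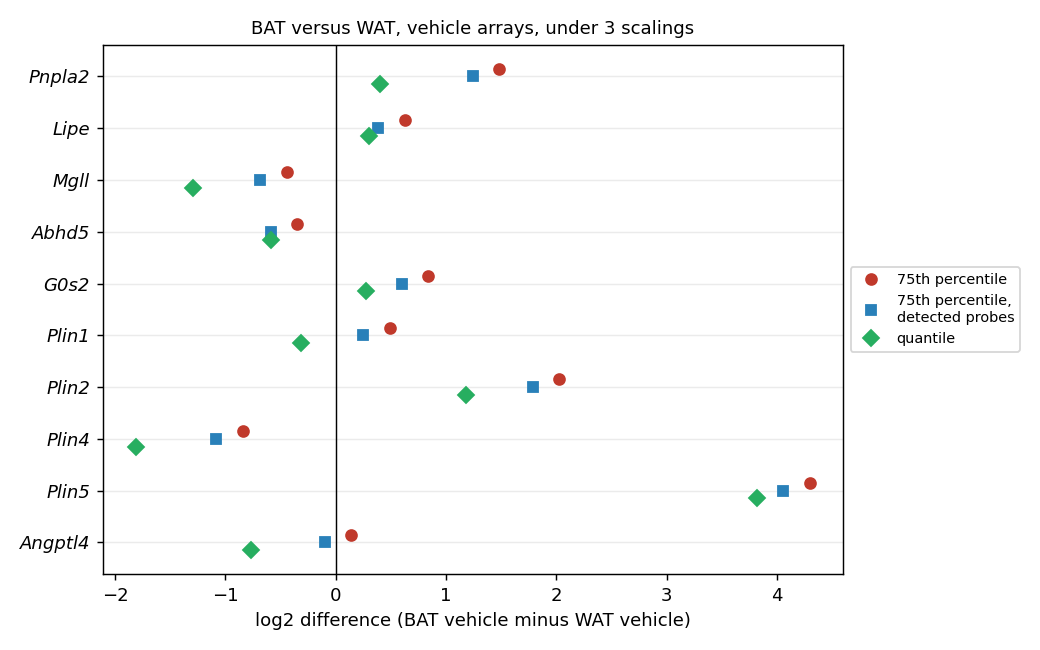
Log2 difference (BAT vehicle minus WAT vehicle, 2 arrays each) of the 10 genes under 3 scalings of the arrays. Plin5 stays at 3.82 or above, Pnpla2 shrinks to 0.40 with quantile normalization, and Plin4 is negative under each.

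Of the 80 tested genes in 5 lists around the members, 21 passed between the tissues (26.2%, near the 23.4% of all features). Of 22 tested genes of the upstream control of lipolysis, 3 were higher and 2 lower in BAT vehicle; the largest were Adcy3, an adenylyl cyclase (9.26-fold higher), Adra2a, the alpha-2A adrenergic receptor that restrains lipolysis (at least 8.61-fold lower, being well above background on neither BAT vehicle array), and Npr3, the clearance receptor of natriuretic peptides (6.45-fold lower). Of 22 other droplet proteins and lipases, 4 were higher and 1 lower, among them Cidea, a droplet fusion protein and brown fat marker (333-fold higher), Cideb (3.92-fold higher) and Plin3 (3.41-fold higher). Triglyceride synthesis had 5 of 16 higher and 2 lower, led by Mogat2, a monoacylglycerol acyltransferase (12.0-fold lower), Gk, glycerol kinase (9.35-fold higher), and Gpat3, a glycerol phosphate acyltransferase (5.97-fold lower). In the list of lipoprotein lipase and fatty acid handling 3 of 12 were higher. They were Lmf1, needed for lipase maturation (2.49-fold), Fabp4 (2.37-fold) and Acsl1 (1.95-fold). Fabp4 turned to -0.20 log2 with quantile normalization. Acsl1 passed in only 11 of 24 alternatives, where its log2 difference ran from 0.0085 to 1.15 over all of them. Of 8 transcription factors only Ppara, the nuclear receptor of fatty acid oxidation, passed, at 28.8-fold higher in BAT vehicle. Median log2 differences ran from 0.08 in the transcription factors to 0.45 in triglyceride synthesis, with 0.56 for the 10 members and 0.11 over all features. The members' median became -0.022 with quantile normalization and -0.088 with normexp and quantile, with 5 of 10 above 0 in each.

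The series contrasts AP with mock injection, and in white fat no member passed in WAT AP against WAT vehicle (0 of 10, against 2.25% of all features, limma), and 1 member, Plin5, had an unadjusted p under 0.05. Averages were higher in AP for 7 of 10 members, against 58.7% of all features, with a median log2 change of 0.38 against 0.15 over all features. That median turned to -0.20 with quantile normalization (5 members above 0) and to -0.25 with normexp and quantile (4 above 0). The direction was not stable for the lipases: Pnpla2 and Mgll changed sign under quantile normalization and under the percentile over detected probes, and Lipe did so without AP array 1.

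Plin5 had 3.74, 4.92 and 3.79 on the WAT AP arrays, against 2.83 and 2.72 on the vehicle arrays. Every AP array lay above both vehicle arrays, the highest being array 2, which also carried muscle markers. The log2 change was 1.38 (2.59-fold, SE 0.45, limma adjusted p = 0.128). Within the slide that AP shares with vehicle array 2 all 3 AP arrays were higher, by 1.43 on average. Without AP array 1 the change was 1.58 (adjusted p = 0.0727), and without AP arrays 1 and 2 together the change was 1.01 (adjusted p = 0.279). Brown adipocyte markers averaged -0.23, 0.73 and -0.61 on the AP arrays, against -1.73 and -0.42 on the vehicle arrays and at most -1.31 in wild type. Of these 6 markers, 5, 5 and 6 were well above background on the AP arrays, 4 and 5 on the vehicle arrays and 4 on each wild-type array. These means therefore include values at background. The part that muscle or brown fat RNA has in the Plin5 values was not tested.

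Plin2 had 6.54, 8.24 and 8.10 in WAT AP, against 6.20 and 6.55 in WAT vehicle. AP arrays 2 and 3 were well above both vehicle arrays while array 1 lay at their level, and the change was 1.25 log2 (2.38-fold, SE 0.72, limma adjusted p = 0.335), or 1.79 without AP array 1 (adjusted p = 0.121). G0s2, the lipase inhibitor, had 6.63 and 6.59 on AP arrays 2 and 3, against 5.62 and 5.95 in WAT vehicle. These did not overlap, and the change was 0.83 log2 (SE 0.49, limma adjusted p = 0.353); its spot on AP array 1 was dropped as uneven, and with that spot kept the change was 0.34. With Plin5 and G0s2, 2 of 10 members did not overlap between AP and vehicle, against 38.5% of all features.

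Abhd5, the lipase activator, had 3.46, 5.03 and 4.57 in WAT AP, against 3.71 and 3.38 in WAT vehicle. The groups overlapped through AP array 1, and the change was 0.81 log2 (SE 0.44, limma adjusted p = 0.310). Its other 2 probes gave 0.83 and 0.22. Plin1 had 6.94, 7.90 and 7.85 in WAT AP, against 6.87 and 7.09 in WAT vehicle, again with array 1 at the vehicle level (0.58 log2, SE 0.30, adjusted p = 0.285 in limma). Plin1 came to -0.02 under normexp correction followed by quantile normalization.

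The lipases differed less on average. Pnpla2 had 7.39, 8.62 and 8.26 in WAT AP, against 8.14 and 7.68 in WAT vehicle (log2 change 0.18, 95% confidence interval -0.60 to 0.96). Mgll had 7.13, 8.21 and 8.11 in WAT AP, against 7.47 and 7.86 in WAT vehicle (0.15, interval -0.62 to 0.91). Lipe had 2.96 and 4.38 on AP arrays 1 and 3, against 4.06 and 4.13 in WAT vehicle (-0.43, interval -1.39 to 0.54), with the spot of array 2 dropped as uneven. In all of these the AP arrays spanned the vehicle arrays, with array 1 lowest. Plin4 had 7.80, 8.78 and 8.82 in WAT AP, against 8.50 and 8.67 in WAT vehicle (-0.12, limma adjusted p = 0.841). Angptl4 had 6.40, 7.90 and 7.84 in WAT AP, against 7.64 and 8.19 in WAT vehicle (-0.54, limma adjusted p = 0.567). It stayed below vehicle on average in every alternative run, and within the shared slide all 3 AP arrays lay below vehicle array 2. Liver markers averaged 3.91 on vehicle array 2 and -0.24 on vehicle array 1, and their part was not tested.

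**Figure D3:**
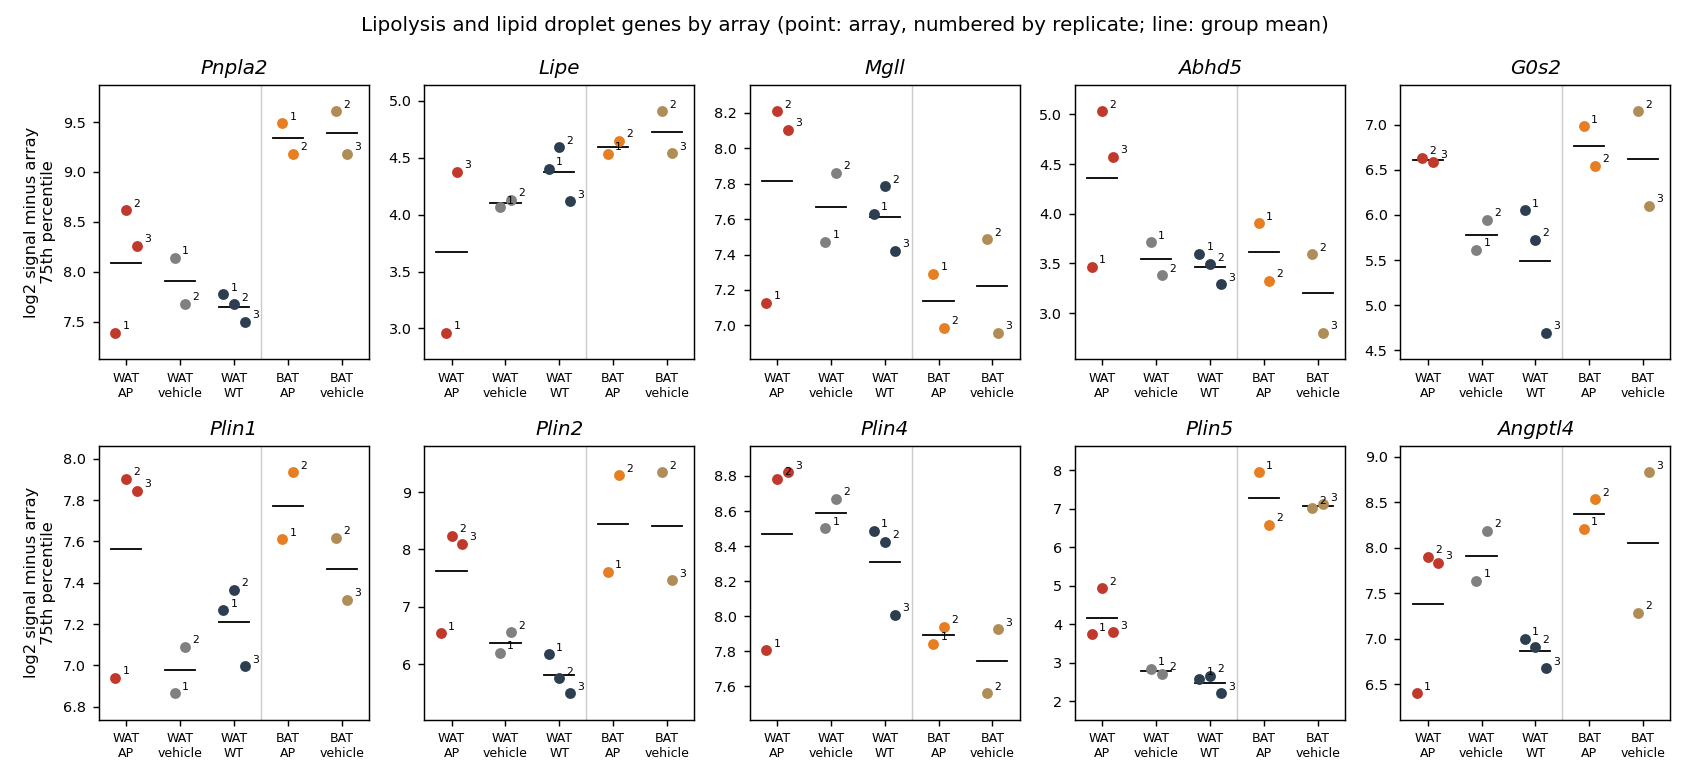
Log2 level of the 10 genes on each array, as points numbered by replicate within a group, with a line at the group mean. WAT AP array 1 is the lowest WAT AP value in all 9 panels where it has one, and Plin5 separates BAT from WAT.

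AP array 1 was the lowest of the 8 WAT arrays for 5 members and the highest for 0, while array 2 was the highest for 7. Wild-type array 3 was the lowest for 4. The matching shares of all features were not taken, so these counts do not show a trait of the members. Leaving out AP array 1 changed the picture. Abhd5 was then 1.26 log2 higher in AP than in vehicle (SE 0.32, limma adjusted p = 0.0492) and Plin1 0.90 higher (SE 0.20, adjusted p = 0.0398), 2 of 10 members against 9.21% of all features. Without it, 9 of 10 members lay above both vehicle arrays on every AP array that had a value, Angptl4 being the exception; of all features, 61.2% did not overlap in this setting and 44.4% were higher without overlap. Pnpla2 then stood at 0.53, Mgll at 0.49, Lipe at 0.28 and Plin4 at 0.22, none of them past the threshold. Without arrays 1 and 2 together, which leaves 1 AP array assumed to vary like the other groups, no member passed. AP array 1 is the array with the epididymal markers at 7.94; over the 5 adipocyte markers with a value on every array it had 7.67, and the lowest wild-type array 7.87. Their part in the low values was not tested.

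**Figure D4:**
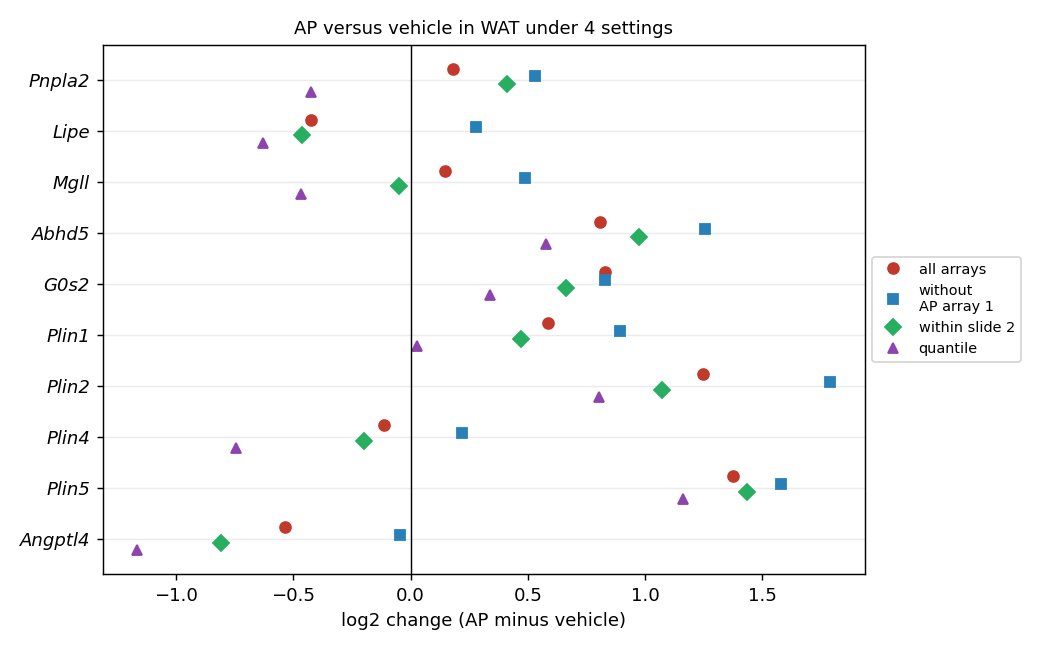
Log2 change (WAT AP minus WAT vehicle) of the 10 genes with all arrays, without AP array 1, within the slide shared with vehicle array 2, and with quantile normalization. Plin5, Plin2, Abhd5 and G0s2 stay above 0 in the 4 settings, whereas Pnpla2 and Mgll lie on both sides of 0.

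None of the surrounding lists had a gene past the threshold in WAT AP against vehicle. The smallest p-values were those of Adrb3 and Pck1. Adrb3, the beta-3 adrenergic receptor that starts lipolysis in mouse fat, had 5.05, 6.30 and 6.03 in WAT AP, against 7.13 and 7.23 in vehicle (2.62-fold lower, SE 0.36 log2, limma adjusted p = 0.0778). Pck1, an enzyme on the path to glycerol phosphate for re-esterification, had 4.96, 5.66 and 5.58 in AP, against 6.77 and 6.93 in vehicle (2.73-fold lower, limma adjusted p = 0.0758). Both groups were apart for each gene. Gpd1, glycerol phosphate dehydrogenase, was 1.93-fold higher (adjusted p = 0.0957 in limma). Angptl8, another regulator of lipoprotein lipase, was 5.81-fold higher on AP arrays 1 and 2 (limma adjusted p = 0.0954), its spot on array 3 being dropped. Epididymal markers averaged 7.94 and 0.094 on those arrays, against -4.75 on array 3, and their part in the Angptl8 values was not tested. Fabp5, a fatty acid binding protein, was 2.46-fold higher (limma adjusted p = 0.105) and Srebf1, the lipogenic transcription factor, 2.49-fold higher (0.121). Without AP array 1, Adrb3 passed at -1.02 (adjusted p = 0.0491), Fabp5 at 1.68 (0.0304), Gpd1 at 1.19 (0.0323) and Srebf1 at 1.69 (0.0355). Triglyceride synthesis and fatty acid handling had median log2 changes of 0.52 and 0.51, the upstream and other droplet lists 0.00 and 0.03, against 0.15 over all features.

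Against untreated wild type, Plin5 rose in WAT AP. It had 3.74, 4.92 and 3.79 in AP, against 2.57, 2.66 and 2.20 in wild type, with no overlap. The change was 3.19-fold (1.67 log2, SE 0.40, limma adjusted p = 0.0397), the call of 1 of 10 members where 8.87% of all features passed. The call is fragile: it held in 8 of 25 alternatives, with adjusted p between 3.14e-04 and 0.935, and it was lost without AP array 2 (1.28, adjusted p = 0.0910), without array 3 (1.85, adjusted p = 0.0576), without either WAT vehicle array (adjusted p = 0.0576), without either BAT vehicle array (0.0523) and without any wild-type array (0.111 to 0.144). AP and wild type share no slide, and the comparison also mixes genotype, injection and ligand, which cannot be told apart.

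Plin2 had 6.54, 8.24 and 8.10 in WAT AP, against 6.18, 5.76 and 5.49 in wild type (3.52-fold, SE 0.64 log2, limma adjusted p = 0.104). G0s2 had 6.63 and 6.59 in AP, against 6.05, 5.72 and 4.70 in wild type (2.18-fold, adjusted p = 0.147 in limma). With Plin5, these made 3 of 10 members without overlap, against 38.1% of all features. Abhd5 averaged 1.86-fold higher (limma adjusted p = 0.174). Without AP array 1, Pnpla2, Abhd5, Plin1, Plin2 and Plin5 passed, 5 of 10 members against 21.8% of all features.

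Of the 80 tested genes in the 5 surrounding lists, 7 passed against wild type (8.75%, near the 8.87% of all features), all of them higher. Triglyceride synthesis had 3 of 16: Gpam, the mitochondrial acyltransferase that starts the pathway (3.26-fold), Gpd1 (2.10-fold) and Agpat3 (2.10-fold). Faf2, a droplet-associated factor of protein degradation, rose 1.95-fold as the 1 call of 22 in its list, Slc27a4, a fatty acid transporter, rose 1.54-fold as the 1 of 12, and Srebf1 (3.67-fold) and Ppard (1.59-fold) were the 2 of 8 transcription factors. No gene of the upstream list passed in this comparison, where Adrb3 was 2.28-fold lower (limma adjusted p = 0.0547). With slide as a fixed block, where AP and wild type are joined only through the vehicle arrays, no feature passed. The calls held in 4 (Slc27a4) to 15 (Srebf1) of 25 alternatives. The spot of Agpat3 on AP array 1 was dropped as uneven.

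Vehicle against wild type tested the transgene and injection without ligand. No member passed (0 of 10, against 0.0327% of all features). Angptl4 differed most, with 7.64 and 8.19 in WAT vehicle, against 7.00, 6.91 and 6.68 in wild type, a log2 difference of 1.05 (2.07-fold, SE 0.54, limma adjusted p = 1). Plin2 (6.20 and 6.55 in vehicle, against 6.18, 5.76 and 5.49 in wild type), Plin4 (8.50 and 8.67, against 8.49, 8.42 and 8.01) and Plin5 (2.83 and 2.72, against 2.57, 2.66 and 2.20) were also higher on every vehicle array. These were 4 of 10 members without overlap, against 34.9% of all features. Liver markers averaged -0.24 and 3.91 on vehicle arrays 1 and 2, and -1.57 to 0.68 in wild type. Their part in the Angptl4 values was not tested. Vehicle array 1 shares a slide with the wild-type arrays, and there 7 of 10 members were higher than the wild-type mean. That count rests on 1 vehicle array, and the share of all features within the slide was not taken. Over both vehicle arrays, 8 of 10 members and 52.6% of all features averaged higher than wild type.

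In brown fat no member passed in AP against vehicle (0 of 10, against 0.00817% of all features), and none of the members' groups was free of overlap, against 37.3% of all features. Plin2 varied most within groups. It had 7.61 and 9.29 in BAT AP, against 9.35 and 7.46 in BAT vehicle, so each group held a high and a low array. Angptl4 had 8.21 and 8.53 in BAT AP, against 7.29 and 8.83 in BAT vehicle (log2 change 0.31, interval -1.02 to 1.65). Plin1 had 7.61 and 7.93 in BAT AP, against 7.62 and 7.32 in BAT vehicle (0.31, interval -0.44 to 1.05), and Abhd5 3.90 and 3.33, against 3.59 and 2.80 (0.42, interval -0.67 to 1.51). The other 7 members had differences of -0.13 to 0.19 log2. With 1 array left out, Abhd5 ran from 0.024 (without vehicle array 3) to 0.81 (without vehicle array 2), Angptl4 from -0.46 (without vehicle array 2) to 1.08 (without vehicle array 3) and Plin1 from 0.14 to 0.47.

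Pnpla2 (9.49 and 9.18 in BAT AP, against 9.61 and 9.18 in BAT vehicle) and Lipe (4.54 and 4.65 in AP, against 4.91 and 4.54 in vehicle) spanned 0.43 and 0.37 log2 over the 4 BAT arrays. Around them, Adrb3 again averaged lower with AP, with 5.54 and 5.96 in BAT AP, against 7.02 and 6.93 in BAT vehicle (2.34-fold lower, limma adjusted p = 0.500). Gpat3 had 4.15 and 4.73 in BAT AP, against 2.35 and 3.22 in BAT vehicle (3.14-fold higher, limma adjusted p = 0.325). Pck1 had 9.40 and 8.90 in BAT AP, against 7.34 and 8.20 in BAT vehicle (2.60-fold higher, adjusted p = 0.453 in limma), the opposite side from WAT. For these 3 genes the groups did not overlap, and none passed. No list had a gene past the threshold.

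**Figure D5:**
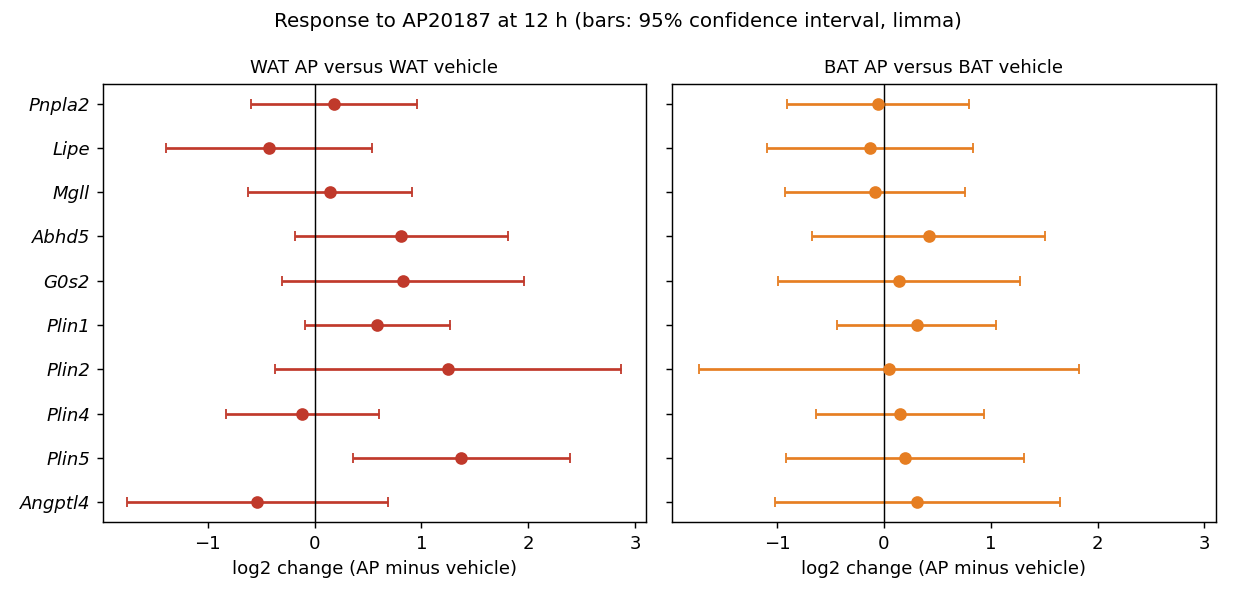
Log2 change (AP minus vehicle) of the 10 genes in WAT (3 and 2 arrays) and BAT (2 and 2 arrays), with 95% confidence intervals from limma. Only the interval of Plin5 in WAT lies off 0, before adjustment over all features.

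Whether WAT and BAT answered AP differently was tested directly, as the WAT change minus the BAT change. No member differed (0 of 10, against 0% of all features, where 4038 features had an unadjusted p under 0.05). It was 1.18 for Plin5 (interval -0.33 to 2.69, limma adjusted p = 0.422), 1.20 for Plin2 (interval -1.21 to 3.61) and -0.85 for Angptl4 (interval -2.65 to 0.96). With 1 array left out these ran from 0.50 (without BAT AP array 2) to 1.86 (without BAT AP array 1) for Plin5, from 0.26 (without BAT vehicle array 2) to 2.14 (without BAT vehicle array 3) for Plin2, and from -1.62 (without BAT vehicle array 3) to -0.076 (without BAT vehicle array 2) for Angptl4. Each interval is wide and holds 0, so neither a difference nor alike responses are shown.

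Each member was compared with the other named genes over the 12 arrays, or over 11 for Lipe and G0s2. The named genes nearest to each, by root mean square distance of levels centred on the gene's mean, were Olfr187 (0.42 log2) and Chchd10 (0.54) for Plin5, Lactb2 (0.32) and Slc25a51 (0.45) for Plin2, Tmem70 and Coq5 (0.14 each) for Pnpla2, and Slc12a4 (0.09) and Cavin1 (0.12) for Plin4. Those of the others were Usf3 and Sit1 for Lipe, Ampd2 and Pla2g6 for Mgll, Sfxn1 and Brpf3 for Abhd5, Sdhaf3 and Prxl2a for G0s2, Mrpl32 and Cwc27 for Plin1, and Palmd and Dhrs3 for Angptl4, at 0.13 to 0.38 log2. No member was among the 2 nearest of another. Within WAT the span from lowest to highest array was widest for Plin2 (2.74) and Plin5 (2.72) and narrowest for Plin4 (1.02).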

How the data were processed

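The authors' arrays were read with Agilent Feature Extraction 10.7.1.1 per the submitters' processing notes (array design 028005 and build mm9, per the file headers), and the values used are its intensity per spot, background-subtracted and detrended, as deposited. The authors' value table holds the same intensity within 0.1% for 99.0 to 99.2% of its values, with dim cells blank. Of 55681 probes, 26050 matched 1 gene through RefSeq (GRCm38.p6) and 29631 none. Here spots flagged as outliers were dropped, spots of a probe averaged, and log2 taken minus each array's 75th percentile. Probes entered when 1 of 5 groups or more had them well above background throughout, and the brightest probe stood for its gene. No member spot was saturated, and spots around them deviated by -0.20 to 0.19 log2. limma 3.58.1 (R 4.3.3) was fitted to 12 arrays and tested on simulated data. The members, lists and tests were chosen with earlier results of these data known. Named genes were all members and, per list and comparison, the 3 largest changes that passed, otherwise the 2 smallest p-values. Whether same-numbered arrays come from the same animal is not labelled. Alternatives covered scaling, background, filters, probes, slides, replicate numbers and arrays left out. 1 alternative, keeping flagged spots, was chosen after seeing the data.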

Additional observations from a re-analysis of the deposited data

Results flagged for a closer look

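The array whose labels name both tissues was in no comparison. On it Abhd5 stood at 3.79, above the highest vehicle or wild-type array (3.71), and Plin4 at 8.76, above the highest of these (8.67). Both are single values 0.1 log2 or less above that array, and they were not tested. The dimmer Abhd5 probes did not stand out there. They read 2.70 and 3.08, below the highest vehicle or wild-type values of 3.03 and 3.19.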

How the results depend on the processing

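Of the calls among members, Plin5 in BAT vehicle against WAT vehicle held in all 24 alternatives. For WAT AP against wild type the count of members called was 0 with quantile normalization, with normexp and quantile, with the authors' value table, with the percentile over detected probes, with only the compared arrays, with slide as a fixed block, and without WAT AP arrays 1 and 2, and it was 7 with slide as a random block, where the slide correlation was -0.25 and 54.9% of all features passed. The cause was not tested. Leaving out 1 array gave 0 to 5 calls there, 0 to 2 for WAT AP against WAT vehicle and 1 to 3 for BAT vehicle against WAT vehicle. Same-numbered arrays correlated between -0.23 and 0.11 in their deviations. With the replicate number as a block, the count was 0 for WAT AP against wild type and 1, Plin5, for the tissues. Pnpla2 then fell short between the tissues (limma adjusted p = 0.0707). The percentile over detected probes moved the median of all features by -0.24 log2 in WAT AP against vehicle and by -0.24 between tissues. Relative to that median, 7 of 10 members stood higher in each under both percentiles, against 4 and 5 with quantile normalization.

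Signs turned as follows. In WAT AP against WAT vehicle, Pnpla2 was -0.43 (quantile), -0.47 (normexp and quantile) and -0.054 (detected probes), Mgll -0.47, -0.48 and -0.088 in the same order and -0.049 with slide as a fixed block, Plin1 -0.023 (normexp and quantile), and Lipe 0.28 and Plin4 0.24 without AP arrays 1 and 2. Between tissues, Plin1 was -0.32 (quantile) and -0.45 (normexp and quantile), Fabp4 -0.20 and -0.33, and Angptl4 -0.77 and -0.73, with -0.10 for detected probes and -0.28 with the replicate block. With 1 array left out, WAT AP against WAT vehicle ran from -0.084 to 0.53 for Pnpla2, -1.13 to 0.28 for Lipe, -0.051 to 0.49 for Mgll and -0.29 to 0.22 for Plin4. Between tissues Abhd5 ran from -0.74 to 0.046 and Angptl4 from -0.63 to 0.91, and in BAT AP against vehicle Angptl4 ran from -0.46 to 1.08. The tissue comparison could not be estimated with slide as a fixed block, since each tissue has slides of its own.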

Other observations

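On the array with contradictory labels, the members stood at 7.64 for Pnpla2, 4.14 for Lipe, 7.65 for Mgll, 6.19 for G0s2, 7.30 for Plin1, 6.04 for Plin2, 2.80 for Plin5 and 7.79 for Angptl4. Ucp1 was at -4.57 and the 5 adipocyte markers with a value on every array averaged 8.04 on it.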
